A study of Mus musculus with 209 samples.

Results

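Wild-type mouse 2-cell embryos were compared with wild-type MII oocytes, the ovulated eggs from which such embryos arise, in 18 single libraries of polyadenylated RNA. The 2-cell stage was represented by 8 libraries (replicates 1 to 8) and the oocyte by 10 (replicates 4 to 13), out of 50 oocyte and 2-cell libraries in the count table and 209 samples in the series. The oocytes were chosen by their synthetic ERCC spike-in RNA, at 0.01% of counts or more, so that both stages could be set on a spike-in scale. The lowest share among the oocytes taken was 0.0382%, and the 4 wild-type oocytes left out held at most 0.00266%. All animals were labelled wild type. Eggs came from superovulated C57BL/6 females of 6 to 8 weeks, oocytes at 14 to 15 h and 2-cell embryos at 42 to 43 h after injection of human chorionic gonadotropin (hCG). The fathers were C57BL/6 or PWK males, and which strain sired these embryos was not given in the sources used here. The strain was not inferred from the paternal allele counts of the 2-cell libraries, 4.00 to 24.7% of their allele-assigned counts. Whether a 2-cell library holds 1 blastomere or a whole embryo, and how much ERCC RNA each library received, was not given either.

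A fully grown oocyte is transcriptionally silent and lives on stored maternal mRNA, whose use is set by masking, poly(A) tail length and degradation. After fertilisation these transcripts are cleared while the embryo's own genome is switched on, in mouse mainly at the 2-cell stage, beginning with a short burst of genes and repeats and going on to the machinery of growth. Because poly(A) RNA was sequenced, a transcript that changed in number and one that changed its tail cannot be told apart in these counts.

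Each library is a single sample with no animal named, so each stage counts as 1 sample and no test between stages was run. Counts were summed over the libraries of a stage and scaled to CPM, the count of a gene relative to all gene counts of the pool. The 95% intervals given in brackets cover counting error only. A gene was called higher or lower at a 2-fold difference, and the spread over the 8 and the 10 libraries is given beside it. Totals outside the spike-ins ran from 3933604 to 8966801 counts in oocytes and from 3788348 to 10303580 in 2-cell libraries. Genes with a count numbered 11492 to 12492 in oocytes and 14175 to 15195 in 2-cell libraries.

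The 2-cell libraries held fewer gene counts for each spike-in count than the 10 oocytes taken. This is a description only, since these oocytes were chosen by their ERCC share. The 4 wild-type oocytes left out were at 37583 to 65035 gene counts per ERCC count. In the 10 oocytes the value was 1706 at the lowest, 2189 at the median and 2615 at the highest. In 2-cell libraries it was 742, 874 and 1714. Pooled, it was 2143 in oocytes and 986 at the 2-cell stage, 2.17-fold fewer. The highest 2-cell library, replicate 8, overlapped the oocytes at 1714, while the other 7 lay between 742 and 992, below all 10 oocytes. This library alone gave 24.0% of the pooled 2-cell counts. It resembled the oocytes more than its own group: its median correlation of log2 CPM across genes was 0.778 with the oocytes and 0.695 with the other 2-cell libraries, against 0.437 to 0.699 and 0.821 to 0.886 for the other 7.

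**Figure D1:**
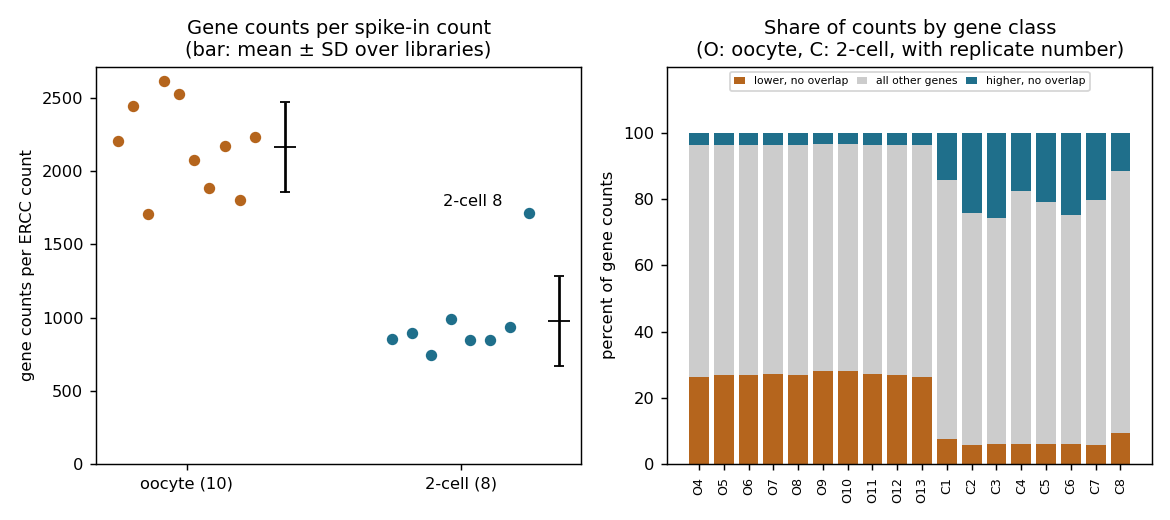
Left, gene counts per ERCC count in each of the 10 oocyte and 8 2-cell libraries, with the mean and SD of each stage; 7 2-cell libraries lie between 742 and 992 and replicate 8 at 1714. Right, the share of each library's counts in genes 2-fold or more lower and without overlap, in genes 2-fold or more higher and without overlap, and in all others; the higher class holds 3.43 to 3.81% in oocytes and 11.6 to 25.7% in 2-cell libraries.

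A gene counted as measured when one of the pools held 10 CPM of it. Of the 8478 measured genes 3573 (42.1%) were called higher and 1084 (12.8%) lower at the 2-cell stage. The median log2 ratio of 2-cell over oocyte was 0.69, so the average gene stood above its oocyte share. At 8-fold the split was wider, with 1576 genes (18.6%) higher and 66 (0.778%) lower. For 2009 genes (23.7%) every 2-cell library lay above every oocyte, and for 703 (8.29%) every 2-cell library lay below. Both conditions together, 2-fold and no overlap, held for 1914 genes (22.6%) on the higher side and 653 (7.7%) on the lower. At the border of the call, Otub2 (1.00015) was just inside and Cnot6 (0.999614) just outside on the higher side, and Btf3l4 (-1.00075) was inside and Skap1 (-0.996496) outside on the lower side. Without 2-cell replicate 8 the counts were 3827 higher and 1259 lower.

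The spike-in scale turned this picture. Per ERCC count 2162 genes (25.5%) were higher and 2990 (35.3%) lower, with a median of -0.43. Every ratio on this scale is 1.12 below the CPM ratio, a larger shift than the -0.66 of TMM factors or the -0.33 of DESeq2 size factors. Of all called genes 76.7% were higher by CPM, 66.1% by DESeq2 factors, 55.0% by TMM factors and 42.0% per ERCC count. A total of 1906 genes were under 2-fold apart by CPM and 2-fold or more lower per ERCC count. With a constant shift of 1.12 no gene could be called in opposite directions by both. Without overlap per ERCC count, 1016 genes (12%) were higher and 1491 (17.6%) lower. The scale assumes that every library received the same amount of ERCC RNA. It also depends on whether a 2-cell library holds 1 blastomere or a whole embryo, which was not given. A lower value per ERCC count is therefore not a measure of RNA lost per embryo.

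Genes called lower took 33.9% of oocyte counts and 9.86% of 2-cell counts, or 726 and 97.2 counts per ERCC count. Genes called higher took 6.62% and 27.9%, or 142 and 276 counts per ERCC count. The genes in between kept 58.5% and 59.9% of the counts, but 1254 and 590 counts per ERCC count. Per spike-in count, the lower and the in-between classes were smaller at the 2-cell stage and the higher class larger. The classes were defined by the CPM ratios of these same counts. The fall of the lower class and the larger share of the higher class were therefore fixed by the calls. The fall of the in-between class was near the 2.17-fold of all counts.

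**Figure D2:**
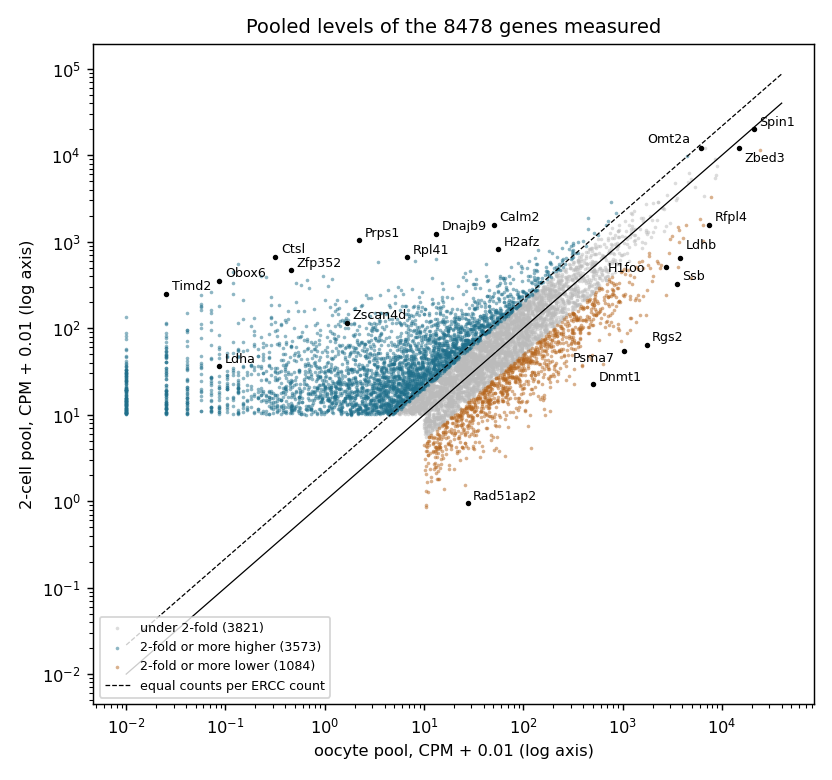
Pooled 2-cell CPM against pooled oocyte CPM of the 8478 genes measured, on log axes with 0.01 CPM added; the solid line marks equal CPM and the dashed line equal counts per ERCC count. The 3573 higher genes reach down to oocyte pools without a count (128 genes), whereas 979 of the 1084 lower genes had counts in all 8 2-cell libraries.

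Genes with the largest ratios were all but absent from the 10 oocytes. Timd2, a cell-surface protein that binds ferritin, was found with 1 count in the 10 oocytes together, and in the 2-cell libraries at 27.1 CPM at the lowest, 257 at the median and 585 at the highest. Its log2 ratio was 13.98 (11.502 to 19.28), and 12.86 per ERCC count. The other largest ratios also rested on 1 oocyte count each. They were those of Isg20l2, an exonuclease of ribosomal RNA processing, at 12.84 (10.37 to 18.15), the meiotic telomere protein Terb2 at 12.84 (10.36 to 18.15), the Rosa26 transcript Gt(ROSA)26Sor at 12.46 (9.98 to 17.76), the folate receptor Folr1 at 12.37 (9.89 to 17.67) and the gap junction protein Gja1 at 12.27 (9.79 to 17.57). All 8 2-cell libraries lay above all 10 oocytes for each of these genes. Their order rests on that single count. Without the oocyte that held it, the pool had none, and the ratio against 3 counts was a lower bound of 12.19 for Timd2 (without oocyte replicate 12), 11.15 for Isg20l2 (replicate 5) and Terb2 (replicate 10), 10.69 for Gt(ROSA)26Sor (replicate 7), 10.66 for Folr1 (replicate 6) and 10.50 for Gja1 (replicate 9). With all 14 wild-type oocytes Gja1 was at 5.74, Gt(ROSA)26Sor at 9.40 and Terb2 at 10.13.

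The naming rule took the 12 most counted genes among those 8-fold higher without overlap. Calm2, a calmodulin, was at 29.6, 48.4 and 75.9 CPM (lowest, median, highest) in oocytes and at 466, 1942 and 2428 CPM in 2-cell libraries, a ratio of 4.97 (4.92 to 5.02). Dnajb9, a co-chaperone of the endoplasmic reticulum, was at 9.52, 12.3 and 18.3 CPM against 385, 1456 and 2508 CPM, a ratio of 6.55 (6.45 to 6.65). Ctsl, the lysosomal protease cathepsin L, did not pass 0.963 CPM in any oocyte and was at 211, 754 and 1258 CPM, a ratio of 11.09 (10.46 to 11.80). In all of these no 2-cell library reached down to the oocytes. The 12 also included Prps1, Rpl41 and Zfp352, described further on, the histone variant H2afz (3.89), the histone chaperone Set (5.58), the exosome cofactor C1d (6.18), Gcsh of the glycine cleavage system (7.38), the elongation factor Eef1a1 (3.69) and the ferritin light chain Ftl1 (3.99). Each of them was higher on the spike-in scale as well, from 2.57 for Eef1a1 to 9.97 for Ctsl. The ranking is by CPM, which is not corrected for transcript length.

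**Figure D3:**
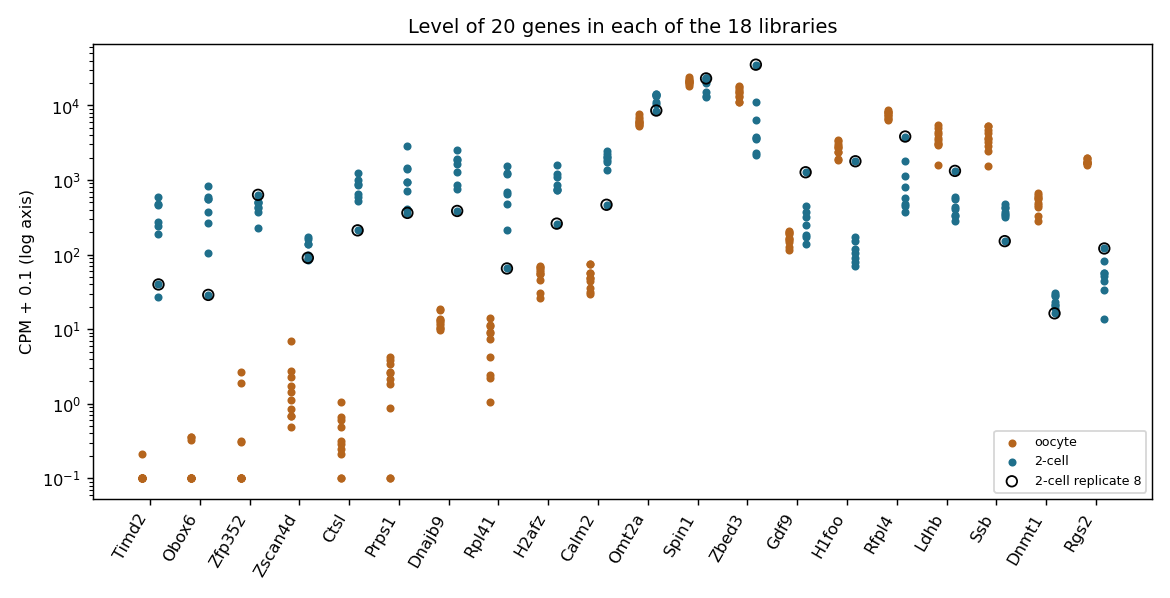
CPM, with 0.1 added, on a log axis for 20 genes in each of the 10 oocyte and 8 2-cell libraries; circles mark 2-cell replicate 8. Genes from Timd2 to Omt2a show every 2-cell library above every oocyte, Spin1, Zbed3 and Gdf9 overlap, and genes from H1foo to Rgs2 show every 2-cell library below every oocyte, with replicate 8 nearest to the oocytes for H1foo, Rfpl4 and Ldhb.

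Burst genes of the 2-cell stage had the largest median among the lists with 10 or more measured members. Of 57 listed genes 48 had a row of counts and 39 were measured. Of the 39 measured members 38 were called higher and 1 lower (97.4% and 2.56%, against 42.1% and 12.8% of all measured genes). The median was 8.80 by CPM and 7.68 per ERCC count. A member nearly absent from oocytes was measured only through the 2-cell pool, so its call as higher followed from the filter. Zfp352, a zinc-finger gene, did not pass 2.55 CPM in oocytes and was at 228, 467 and 633 CPM in 2-cell libraries, a ratio of 10.03 (9.51 to 10.61). Zscan4d, a telomere-associated zinc-finger gene, was at 0.385, 1.18 and 6.75 CPM in oocytes against 84.4, 118 and 172 CPM, a ratio of 6.12 (5.85 to 6.41). Its near copy Zscan4c was at 5.61 (5.37 to 5.86). Ubtfl1 (12.24, 10.38 to 15.28), Trim43a (12.05, 10.69 to 13.92), Rfpl4b (11.91, 10.36 to 14.19), the deubiquitinase gene Usp17lc (9.14, 8.01 to 10.58) and Tdpoz4 (10.50, 8.02 to 15.81) were higher without overlap. The member called lower was Sp110, at -1.01, which was under 2-fold with all 14 oocytes (-0.62), without oocyte replicates 5, 7 or 8, and without 2-cell replicates 1 (-0.93), 4 or 5. Ratios with few oocyte counts moved with single oocytes: Zfp352 was at 11.53 without oocyte replicate 7, Usp17lc at 11.60 without replicate 6, and Trim43a at 12.95, Ubtfl1 at 11.56 and Tdpoz4 at 8.83 without replicate 11. Zscan4, Trim43, Tdpoz and Usp17l genes are families of near-identical copies, so the split of counts within each family is uncertain.

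The promoters of burst genes shared letters that were rare elsewhere. Sequences of the 250 bases before the start site were taken from RefSeq (GRCm38.p6), which held 24 of the 39 burst genes with 26 promoters. The letters GATTAA, on either strand, occurred in 42.3% of them, against 6.66% of all 32851 promoters of the table and 4.62% of those of the measured genes. GATTAA overlaps GGATTA, the core bound by Obox and Otx homeodomain proteins, which was found in 19.2% against 6.25% of all promoters. AAGGTCA, the letters of nuclear receptors such as Nr5a2 that bind as monomers, occurred in 15.4% against 4.08%, in 4 promoters, all of Zscan4 genes. The promoters also had few CpG dinucleotides, with a median of 2 against 16 in the promoters of measured genes and 6 in all promoters. This was not particular to burst genes. The 29 promoters of oocyte identity markers also had a median of 2, and 10.3% of them held GATTAA. Median GC content was 45.8% in burst gene promoters, 50.0% in those of oocyte identity markers and 59.6% in those of measured genes. The Zscan4 genes are copies of each other, so these shares do not come from independent promoters. A match describes letters and is not a site of binding. Examples follow, with GATTAA or its reverse complement in capitals, for Zfp352 at chr4:90218570-90218819 on the plus strand, Zscan4d at chr7:11166149-11166398 on the minus strand and Rfpl4b at chr10:38821780-38822029 on the minus strand. Zfp352 is shown because its letters recur 8 times in a tandem array, and the others because they hold a single match.
Zfp352: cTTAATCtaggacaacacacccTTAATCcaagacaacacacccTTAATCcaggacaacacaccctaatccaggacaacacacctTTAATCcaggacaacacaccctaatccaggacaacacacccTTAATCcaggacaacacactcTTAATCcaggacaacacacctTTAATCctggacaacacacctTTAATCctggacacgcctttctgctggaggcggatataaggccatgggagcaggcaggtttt
Zscan4d: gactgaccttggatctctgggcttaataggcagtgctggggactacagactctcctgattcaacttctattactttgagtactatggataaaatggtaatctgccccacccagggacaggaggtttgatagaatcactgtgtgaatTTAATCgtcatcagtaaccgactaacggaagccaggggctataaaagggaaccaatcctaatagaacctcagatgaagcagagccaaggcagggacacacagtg
Rfpl4b: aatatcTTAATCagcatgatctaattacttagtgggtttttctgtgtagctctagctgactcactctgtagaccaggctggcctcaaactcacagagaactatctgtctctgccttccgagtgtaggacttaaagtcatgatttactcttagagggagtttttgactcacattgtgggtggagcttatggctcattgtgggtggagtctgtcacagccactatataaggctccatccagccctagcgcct

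Homeobox genes of the Obox and Crxos clusters stood on opposite sides. Of 7 measured members 3 were called higher and 3 lower (42.9% each, against 42.1% and 12.8% of all measured genes). The list median of -0.34 by CPM and -1.46 per ERCC count describes neither side. Obox6, at most 0.255 CPM in an oocyte, was at 28.7, 461 and 842 CPM in 2-cell libraries, a ratio of 12.17 (10.95 to 13.80). Crxos (11.77, 10.23 to 14.05) and Obox3 (9.70, 9.04 to 10.45) were on the same side, with Crxos at 13.17 without oocyte replicate 7. Obox2 was at 1178, 1768 and 2093 CPM in oocytes against 77.4, 103 and 207 CPM, a ratio of -3.61 (-3.65 to -3.57), and Obox7 (-2.11) and Obox1 (-1.71) were lower too. None of these 6 genes overlapped between stages.

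Regulators of genome activation and pluripotency included genes on both sides. Gabpa, an ETS-family transcription factor, was at most 5.26 CPM in oocytes and at 109, 461 and 809 CPM in 2-cell libraries, a ratio of 8.73 (8.37 to 9.12), or 9.83 without oocyte replicate 13. Of 31 measured regulators 17 were called higher and 3 lower (54.8% and 9.68%, against 42.1% and 12.8% of all measured genes), with a median of 1.12 by CPM that was 0.00 per ERCC count. The lower members were Klf17 (-1.52), a maternal Kruppel-like factor, the demethylase Kdm1a (-2.01) and the chromatin assembly factor Chaf1a (-1.31). The 29 measured early lineage and pluripotency factors had a median of 2.70 by CPM and 1.58 per ERCC count. Of these factors 20 were higher and 3 lower (69.0% and 10.3%, against 42.1% and 12.8% of all measured genes). They included Zfp42 (7.25), a marker of pluripotent cells, the inhibitor of differentiation Id1 (7.39, and 9.40 without oocyte replicate 8) and Dppa4 (6.41), and also Sall4 (2.70), which oocytes already held, at a median of 55.1 CPM. With all 14 oocytes Sall4 was at -0.16. The summed CPM of this list was nonetheless lower at the 2-cell stage, 13250 against 18500. Dppa3, a maternal protector of DNA methylation and a member of the list, was at 7849 CPM in oocytes and 3298 CPM at the 2-cell stage (-1.25, and -0.95 with all 14 oocytes).

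Cytosolic ribosomal protein genes were higher as a body. Of 78 measured members 71 (91.0%) were called higher and none lower by CPM, against 42.1% and 12.8% of all measured genes. The median was 3.96. Per ERCC count 68 were higher and 1 lower, against 25.5% and 35.3% of all measured genes, with a median of 2.84. Their summed CPM was 1892 to 2654 in oocytes and 4478 to 18720 in 2-cell libraries. Rpl41, of the large subunit, was at 0.964, 8.01 and 14.1 CPM in oocytes and at 65.1, 667 and 1566 CPM in 2-cell libraries, a ratio of 6.61 (6.47 to 6.75). Rpl10a (8.59, 7.61 to 9.80) and Rpl3 (8.01, 7.08 to 9.14) were among those nearly absent from oocytes. Without oocyte replicate 11 Rpl10a was at 9.18, and Rpl3 was at 8.73 without replicate 6 and at 8.69 without replicate 13. Many ribosomal protein genes have processed pseudogenes, and the counts of such genes are uncertain where reads match both.

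Ribosomal protein promoters had another make-up. RefSeq held 58 of the 78 genes with 68 promoters, of which 27.9% held CCGGAAG, the letters bound by ETS factors such as Gabpa, against 14.2% of the promoters of measured genes and 6.91% of all. The median number of CpG dinucleotides was 18. Examples follow with CCGGAAG or its reverse complement in capitals, for Rpl41 at chr10:128549169-128549418 on the minus strand, Rps26 at chr10:128626507-128626756 on the minus strand and Rpl38 at chr11:114668330-114668579 on the plus strand. They are shown because all were called higher, Rps26 by 6.27 and Rpl38 by 6.58.
Rpl41: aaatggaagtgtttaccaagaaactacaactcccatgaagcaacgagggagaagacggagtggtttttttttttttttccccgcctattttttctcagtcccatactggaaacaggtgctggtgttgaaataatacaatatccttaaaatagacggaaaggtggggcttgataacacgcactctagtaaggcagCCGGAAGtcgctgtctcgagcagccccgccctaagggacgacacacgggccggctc
Rps26: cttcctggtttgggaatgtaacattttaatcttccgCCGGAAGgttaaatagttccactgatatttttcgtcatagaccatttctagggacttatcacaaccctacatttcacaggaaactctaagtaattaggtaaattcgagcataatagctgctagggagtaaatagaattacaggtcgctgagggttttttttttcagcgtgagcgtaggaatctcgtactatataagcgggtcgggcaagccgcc
Rpl38: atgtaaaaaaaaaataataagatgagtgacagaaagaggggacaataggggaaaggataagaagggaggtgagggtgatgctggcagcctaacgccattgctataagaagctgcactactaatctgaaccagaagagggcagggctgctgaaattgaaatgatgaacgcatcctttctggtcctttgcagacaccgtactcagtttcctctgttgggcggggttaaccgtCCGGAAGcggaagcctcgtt

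Neither CCGGAAG nor GATTAA marked the genes called at 2-fold in general. CCGGAAG was found in 13.9% of promoters of genes 2-fold higher without overlap, in 15.1% of those lower without overlap and in 14.0% of those under 2-fold apart. GATTAA was found in 4.69, 4.58 and 4.38% of the same classes, but in 7.36% of those 16-fold higher. AAGGTCA differed more between the 2-fold classes, at 3.93, 1.96 and 2.69%, and was found in 4.63% of those 16-fold higher.

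Ribosome biogenesis had 35 of 62 members higher and 6 lower (56.5% and 9.68%, against 42.1% and 12.8% of all measured genes), with a median of 1.19 by CPM and 0.07 per ERCC count. Nop2, an rRNA methyltransferase, was at 16.1, 44.6 and 82.1 CPM in 2-cell libraries with 2 counts in all oocytes, a ratio of 10.40 (8.55 to 13.45), and Nop16 was at 9.48 (8.67 to 10.43). Both counts of Nop2 came from oocyte replicate 9, without which the ratio was a lower bound of 9.63, and Nop16 was at 10.88 without replicate 7. In contrast Ftsj3, a processing factor of pre-rRNA, was at -2.77 (-2.91 to -2.63) and Rrp1b at -2.36. Of 45 initiation and elongation factors 21 were higher and 6 lower, 46.7% and 13.3%, near the 42.1% and 12.8% of all measured genes (median 0.92, -0.20 per ERCC count), and their summed CPM was 10590 in oocytes and 10690 at the 2-cell stage. The poly(A)-binding protein Pabpc1 was among the higher, at 5.36 (5.15 to 5.58), and the start-codon factor Eif1b among the lower, at -2.01 (-2.04 to -1.97).

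**Figure D4:**
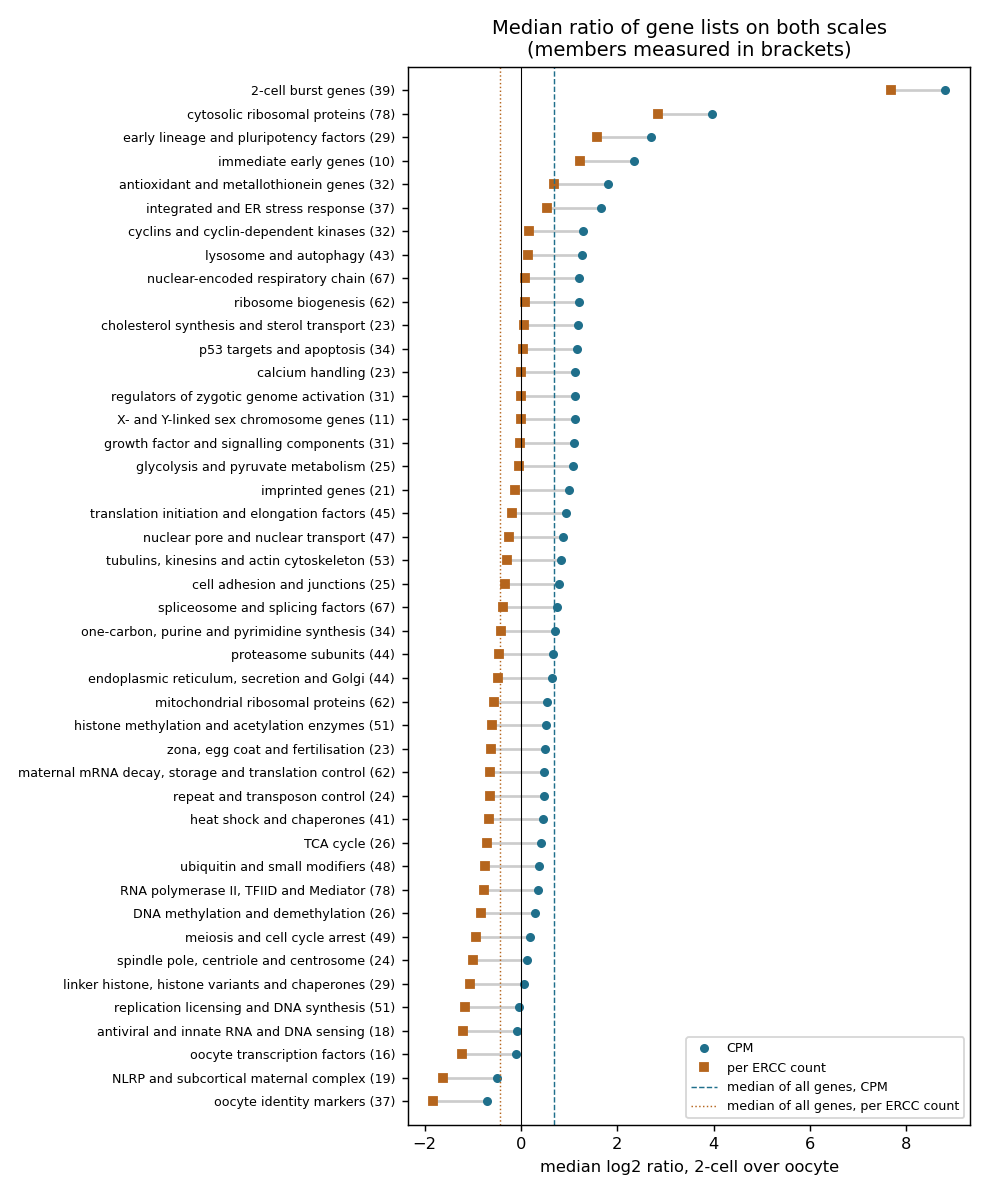
Median log2 ratio of 2-cell over oocyte for each gene list with 10 or more measured members, by CPM and per ERCC count, with the medians of all genes (0.69 and -0.43) as vertical lines. Burst genes (8.80) and cytosolic ribosomal proteins (3.96) stand highest on both scales, and oocyte identity markers (-0.70) and the NLRP and subcortical maternal complex list (-0.50) lowest.

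Metabolic genes of the same function stood on opposite sides. Lactate dehydrogenase B, Ldhb, was at 1603, 3570 and 5513 CPM in oocytes and 281, 422 and 1327 CPM in 2-cell libraries, a ratio of -2.55 (-2.57 to -2.53), or -3.14 without 2-cell replicate 8. Lactate dehydrogenase A, Ldha, with 5 counts in all oocytes, was at 13.9, 35.4 and 60.6 CPM, a ratio of 8.87 (7.65 to 10.50), or 9.52 without oocyte replicate 11. Over 25 measured genes of glycolysis and pyruvate metabolism 13 were higher and 3 lower (52% and 12%, against 42.1% and 12.8% of all measured genes), with a median of 1.07 by CPM that turned to -0.05 per ERCC count, and the summed CPM went from 7115 to 2524. The higher members included the pyruvate carrier Mpc2 (4.61) and the lactate transporter Slc16a1 (3.57). Lower were the red-cell type mutase Bpgm (-2.26) and the dehydrogenase subunit Dld (-2.06). In the respiratory chain 35 of 67 nuclear-encoded subunits were higher and 5 lower, 52.2% and 7.46% against 42.1% and 12.8% of all measured genes (median 1.20, 0.08 per ERCC count), with Ndufs8 at 7.68 (8.996 without oocyte replicate 7) and Ndufa10 at -3.28 (-3.36 to -3.21), both of complex I.

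Enzymes that make nucleotides and antioxidants were among the strongest. Prps1, which makes the ribose-phosphate donor of nucleotide synthesis, was at 0 to 4.08 CPM in oocytes and at 363, 951 and 2874 CPM in 2-cell libraries, a ratio of 8.87 (8.63 to 9.12). Ppat, the first committed enzyme of purine synthesis, was at 9.09 (8.49 to 9.76) and the nucleoside diphosphate kinase Nme2 at 8.63 (8.14 to 9.17). Of 32 antioxidant and metallothionein genes 20 were higher and 1 lower (62.5% and 3.12%, against 42.1% and 12.8% of all measured genes). The median was 1.81 by CPM and 0.69 per ERCC count. The metal-binding metallothioneins Mt2 (9.37, 8.88 to 9.91) and Mt1 (9.11, 8.67 to 9.58) did not pass 1.90 CPM in an oocyte, and the peroxiredoxin Prdx4 was at 9.88 (8.90 to 11.09). Without oocyte replicate 7 Prdx4 was at 12.69, and without replicate 8 Mt2 was at 10.20. The lower member was Txnip, the inhibitor of thioredoxin, at -3.42 (-3.51 to -3.34). Stress genes of the endoplasmic reticulum and the integrated response had 22 of 37 members higher and 2 lower. These are 59.5% and 5.41%, against the same 42.1% and 12.8% (median 1.66, 0.54 per ERCC count). The serine synthesis enzyme Psat1 was at 9.34 (8.30 to 10.65, and 11.06 without oocyte replicate 11) and the secreted stress factor Manf at 4.44. Of 41 measured heat shock and chaperone genes 17 were higher and 4 lower (41.5% and 9.76%). These shares were near the 42.1% and 12.8% of all measured genes, with a median of 0.45 by CPM and -0.67 per ERCC count. Among them Hsp90aa1, an inducible HSP90, was at -2.33 (-2.35 to -2.31) while Dnajb9 was far higher.

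Cell-cycle genes were divided between both sides. Ccnb1, cyclin B1, was at 1835, 3712 and 4821 CPM in oocytes and 655, 867 and 1334 CPM in 2-cell libraries, a ratio of -1.92 (-1.93 to -1.90), and Ccnb2 was at -1.98 (-2.60 without 2-cell replicate 8). Its kinase Cdk1 was at most 2.54 CPM in oocytes and at 75.8, 201 and 395 CPM, a ratio of 7.25 (6.93 to 7.58). The S-phase cyclin Ccne1 was at 5.21 (5.08 to 5.35), the phosphatase Cdc25c at 7.12 (6.72 to 7.55, and 8.05 without oocyte replicate 8) and the securin Pttg1 at -1.90. Of 32 cyclins and cyclin-dependent kinases 19 were higher and 5 lower, 59.4% and 15.6% against 42.1% and 12.8% of all measured genes (median 1.29, 0.17 per ERCC count). Replication genes leaned the other way: 10 of 51 were higher and 12 lower (19.6% and 23.5%), with a median of -0.04 by CPM and -1.16 per ERCC count. Slbp, which binds histone mRNA, was at 4975, 6532 and 7523 CPM in oocytes and 707, 903 and 3666 CPM at the 2-cell stage (-2.06, and -2.89 without replicate 8). The checkpoint kinase Chek1 was at -2.03.

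Among chromatin genes the oocyte linker histone was lower and the H2A.Z genes were higher. Over the 29 measured linker histones, variants and chaperones 9 were higher and 9 lower (31% and 31%, against 42.1% and 12.8% of all measured genes), with a median of 0.05 by CPM and -1.07 per ERCC count. H1foo, the oocyte linker histone, was at 1881, 2716 and 3445 CPM in oocytes. In 2-cell libraries it was at 69.8 to 174 CPM in 7 and at 1786 CPM in replicate 8, which lay below the lowest oocyte all the same. The ratio was -2.41 (-2.43 to -2.39), and -4.62 without replicate 8. H2afz and H2afv, coding for H2A.Z proteins, were higher by 3.89 and 4.71. Among enzymes of histone modification 19 of 51 were higher and 8 lower, 37.3% and 15.7%, near the 42.1% and 12.8% of all measured genes (median 0.51, -0.61 per ERCC count), with the demethylase Kdm4c at 8.96 (8.15 to 9.91, and 11.38 without oocyte replicate 13) and the deacetylase Hdac1 at 5.05 (4.84 to 5.26). The histone-binding protein Rbbp7 went from 6381 to 1031 CPM (-2.63, and -3.31 without replicate 8).

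Genes of DNA methylation were lower in sum, 11450 against 5121 CPM. Most of this fall was that of Dppa3, a member of this list too, whose values are given above. Of 26 measured members 9 were higher and 5 lower, 34.6% and 19.2% against 42.1% and 12.8% of all measured genes (median 0.30, -0.82 per ERCC count). Dnmt1, the maintenance methyltransferase, was at 286, 528 and 667 CPM in oocytes and at 16.2, 22.2 and 30.4 CPM in 2-cell libraries, a ratio of -4.48 (-4.57 to -4.39), among the 6 smallest of all genes under the naming rule. The glycosylase Neil3 was at -3.26 (-3.31 to -3.22). Dnmt3l, a cofactor of de novo methylation, was higher by 1.97 but under 2-fold per ERCC count, at 0.85. Zfp57, which protects imprints, was at -1.12, at -0.98 with all 14 oocytes and at -2.27 without replicate 8, whose 1310 CPM lay within the range of the oocytes.

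Several signalling, adhesion and transport genes were nearly absent from oocytes. Spry2, an inhibitor of receptor tyrosine kinase signalling, was at 55.6, 403 and 992 CPM against at most 1.84 CPM in an oocyte (10.65, 9.95 to 11.45, and 11.72 without oocyte replicate 5). The inhibitory Smad7 (8.92, 7.87 to 10.23) and the adhesion molecule Epcam (6.99, 6.71 to 7.28) were higher without overlap. Cldn6, a claudin of tight junctions, and Dkkl1 had 1 oocyte count each, with ratios of 11.64 (9.16 to 16.95) and 12.13 (9.65 to 17.43). Without the oocyte holding that count (replicates 11 and 8) the lower bounds were 9.97 and 10.33. The Wnt receptor Fzd5 and the phospholipase Plcd4 had no count in the 10 oocytes. Against a floor of 3 counts over the oocyte pool, Fzd5 was at least 530-fold higher and Plcd4 at least 828-fold higher. The importin Kpna1 was at 29.8, 211 and 338 CPM with 4 oocyte counts (11.26, 9.90 to 13.14), and its ratio was 12.07 without oocyte replicate 7 and 12.17 without replicate 11. Lower were the calcium channel of internal stores Itpr2 (-3.42, -3.50 to -3.35) and the calcium pump Atp2b1 (-2.86, -2.94 to -2.78).

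On the maternal side, the most counted of the genes at least 4-fold lower were oocyte specialists and general factors alike. Rfpl4, an oocyte RING-finger protein, was at 6366, 7465 and 8617 CPM in oocytes and at 375, 694 and 3834 CPM in 2-cell libraries, a ratio of -2.26 (-2.27 to -2.24), or -3.14 without replicate 8. Ssb, the RNA-binding La protein, was at 1561, 3555 and 5245 CPM against 151, 362 and 470 CPM, a ratio of -3.44 (-3.46 to -3.42). For Ssb the lowest 2-cell value was that of replicate 8, the reverse of Rfpl4. Fbxw24, an oocyte F-box protein, was at -2.83 (-2.85 to -2.81) and Ccdc69 at -2.16. Smallest of all were Rad51ap2 (-4.88, -5.37 to -4.43, and -5.98 without 2-cell replicate 6), Ccdc3 (-4.84, -5.06 to -4.62), Rgs2 (-4.76, -4.81 to -4.70), which restrains G-protein signalling in the egg, Ccdc191 (-4.27) and the proteasome subunit Psma7 (-4.23, -4.29 to -4.17). All of them were without overlap.

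Oocyte gene families were lower in part. Of 19 measured members of the NLRP and subcortical maternal complex list 7 were lower and 1 higher. These are 36.8% and 5.26%, against 12.8% and 42.1% of all measured genes (median -0.50, -1.62 per ERCC count). Nlrp4b (-3.66, -3.70 to -3.61), Nlrp4a (-2.80, and -3.53 without 2-cell replicate 8) and Nlrp5 (-2.53), with the peptidylarginine deiminase Padi6 (-2.53), were lower without overlap, and Khdc3 was the higher member at 1.58. Of 18 antiviral and nucleic acid sensing genes 6 were lower and 6 higher, 33.3% each (median -0.08, -1.20 per ERCC count). The shares of all measured genes were 12.8% lower and 42.1% higher. The oocyte-expressed 2'-5'-oligoadenylate synthetase genes Oas1h (-4.05, -4.12 to -3.98), Oas1d (-3.49, -3.52 to -3.47), Oas1e (-2.37) and Oas1c (-1.94) were lower, and the antiviral zinc-finger protein Zc3hav1 was higher by 3.61, with replicate 8 at 5.05 CPM inside the range of the oocytes, and Oas1e also overlapped. Without replicate 8 Oas1d was at -4.28 and Oas1e at -3.16. Of 62 genes of mRNA storage, decay and translation control 22 were higher and 14 lower, 35.5% and 22.6% against 42.1% and 12.8% of all measured genes (median 0.49, -0.63 per ERCC count). Dazl, a germ-cell translation activator, was at -1.90 (-1.92 to -1.89), while Tob1, which recruits deadenylases, was at 22.1, 223 and 283 CPM against at most 1.91 CPM in oocytes (8.03, 7.57 to 8.52).

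Some of the most counted oocyte transcripts kept their share. Spin1, a reader of histone methylation needed for meiosis, was at 18140, 20827 and 24167 CPM in oocytes and at 13109, 21057 and 23732 CPM in 2-cell libraries, a ratio of -0.07 (-0.07 to -0.06) by CPM and -1.19 per ERCC count. Paip1 (0.09), Tcl1 (-0.27), the p53 inhibitor Mdm4 (0.14), the histone gene H3f3b (0.10), Ube2d3 (-0.30) and the deadenylase Cnot7 (-0.17) overlapped between stages too. Zbed3, a protein of the oocyte cortex, belongs here only through replicate 8: at -0.28 in the pools it was at -1.59 without that library, which held 35283 CPM against 2181 to 10970 in the others. Omt2a and Omt2b, oocyte maturation genes, lay above every oocyte in all 2-cell libraries, by 0.95 and 0.86, and were at -0.17 and -0.26 per ERCC count. Oog3 (0.40), C86187 (0.49) and Tiparp (0.33) also turned from above to below between the scales.

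The identity markers of each stage were checked against the labels. All 10 oocytes held Zp1, Zp2 and Zp3 of the egg coat and the growth factors Gdf9 and Bmp15, which persisted at the 2-cell stage: Bmp15 was at 1641, 1933 and 2665 CPM in oocytes and 897, 1731 and 5019 CPM in 2-cell libraries (0.47). Gdf9 was called higher at 1.60, but only at 0.68 without replicate 8 (1272 CPM), and it was -2.10 when all 14 wild-type oocytes were used. Zp3 was higher at 3.24 (3.10 to 3.38), from 7.72 to 72.7 CPM, but under 2-fold, at 0.75, with all 14 wild-type oocytes. Mos, a kinase of meiotic arrest, did not pass 3.07 CPM in any of the 10 oocytes. Its ratio of 0.89 was -0.26 without 2-cell replicate 8 and -6.20 with all 14 oocytes. Nlrp14 was at 225 to 600 CPM in the oocytes and 106 to 477 CPM in the 2-cell libraries (-0.59). Of 37 oocyte identity markers 15 were lower and 5 higher, 40.5% and 14% (median -0.70, -1.82 per ERCC count). The shares of all measured genes were 12.8% lower and 42.1% higher.

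Within the 2-cell group the libraries formed a series rather than a cluster. The share of allele-assigned counts that were paternal was 4.00% in replicate 8, 9.03% in 1, 13.1% in 4, 16.95% in 5, 18.6% in 7, 23.8% in 2, 24.5% in 3 and 24.7% in 6. The share of counts in genes 2-fold higher without overlap ran from 11.6% in replicate 8 to 25.7% in replicate 3, and across the 8 libraries it followed the paternal share (Pearson r 0.994, Spearman rho 0.952, and r 0.981 without the 2 libraries farthest from the median). The likeness to oocytes followed it inversely (r -0.998). These values describe 8 libraries whose counts enter both measures.

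The lists did not all follow this series. Summed ribosomal protein CPM was 4478 in replicate 8, 7987 in 1, 10270 in 4, 11450 in 5, 10190 in 7, 15040 in 2, 18720 in 3 and 15440 in 6. Summed burst gene CPM was 3591 in replicate 8, above the 3256 of replicate 1 and the 3248 of replicate 4, and 7672 in replicate 6. Replicate 8 held the highest Zfp352 of the 8 libraries, at 633 CPM, and 129 CPM of Zscan4c, but the lowest Obox6, at 28.7 CPM, and the lowest Rpl41, at 65.1 CPM. The summed NLRP and subcortical complex list was 46180 CPM in replicate 8, above the oocyte range of 24420 to 32030, largely through Zbed3, against 6652 to 18450 in the other 7.

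**Figure D5:**
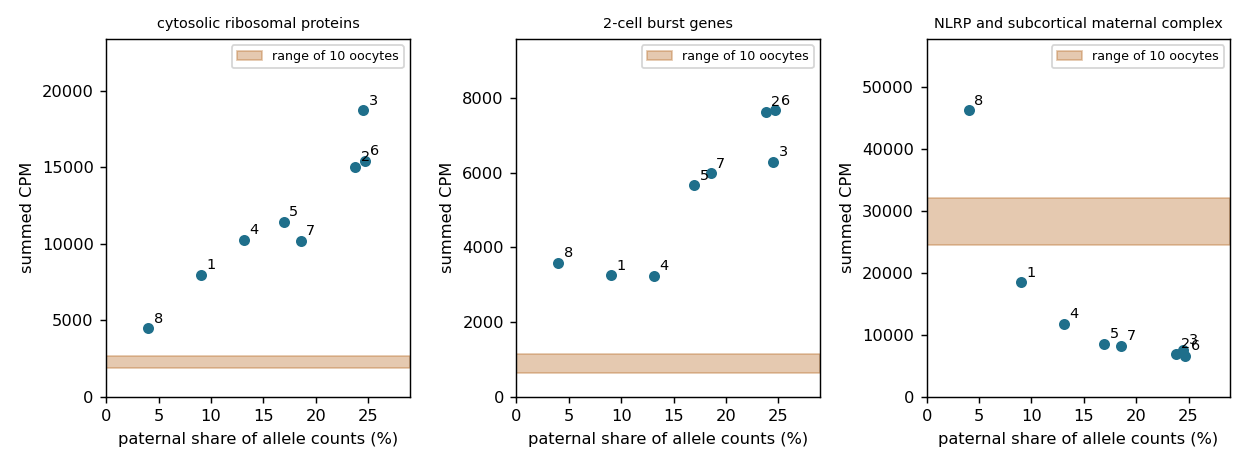
Summed CPM of the ribosomal protein, burst gene and NLRP lists in each 2-cell library (replicate numbers beside the points) against the paternal share of its allele-assigned counts; bands give the range of the 10 oocytes. Ribosomal protein CPM goes from 4478 in replicate 8 to 18720 in replicate 3, and burst gene CPM is above the oocytes in all 8 libraries, replicate 8 included.

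Paternal shares were larger among genes called higher than in the other classes, which were alike. Among genes with 50 or more allele-assigned counts, the median paternal share was 46.9% in 1050 genes 16-fold higher, 37.5% in 3305 genes called higher, 8.25% in 3566 genes under 2-fold apart and 8.72% in 983 genes called lower. Over all counts it was 14.6%. The oocytes gave no background for these shares, since the deposited paternal table holds 0 for them throughout. Low paternal shares were seen in 4 genes chosen after their values were seen: Spin1 had a paternal share of 0.190% (exact 95% interval 0.175 to 0.205), Rfpl4 0.110%, Omt2b 0.0289% and H1foo 0.0411%.

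Paternal counts were also found among the lower genes. Of the 983 lower genes 222 (22.6%) had a paternal share of 25% or more, about the same share as among genes under 2-fold apart (757 of 3566, 21.2%) and less than among those called higher (2294 of 3305, 69.4%). Examples, chosen after their values were seen, were Hsp90aa1 at 45.9% (44.6 to 47.3), the cohesin acetyltransferase Esco2 at 36.8%, Psma7 at 34.6% (32.1 to 37.2), Pttg1 at 29.7%, the condensin subunit Smc4 at 30.4% and Ssb at 27.3% (25.8 to 28.7). The reverse also occurred. Of the 3305 higher genes 166 (5.02%) had a paternal share under 2%, among them Ccdc6 (1.13 by CPM, 0.01 per ERCC count, paternal share 0.0605%), the cohesin release factor Wapl (1.90 and 0.78, 0.947%) and Foxn2 (1.31 and 0.19, 0.163%). These 3 were under 2-fold higher on the spike-in scale.

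Some of the strongest genes had a paternal share above 75%. Of 1050 genes 16-fold higher 84 (8.00%) did, and none of the 983 lower genes. They included Kdm4c at 84.1%, Gja1 at 79.2% (75.7 to 82.5), Rpl13 at 77.0% and Isg20l2 at 76.1% (74.2 to 77.9). Of the imprinted list the paternally expressed Kcnq1ot1 (5.77, 93.2% paternal) and Impact (3.54, 80.3%) were higher, as was Igf2r (3.62), at 49.3%. With all 14 oocytes Igf2r was under 2-fold, at 0.74.

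Markers of other cells were examined in both stages. Of 32 cumulus and granulosa genes 7 were measured, 3 called higher and 2 lower. These are 42.9% and 28.6%, against 42.1% and 12.8% of all measured genes. The summed CPM of the 32 was 243 to 495 in oocytes and 248 to 499 in 2-cell libraries. The defining Foxl2, Amh, Ptx3 and Has2 stayed at 1.61 CPM or less in every library, and Ptgs2 and Fshr at 4.24 CPM or less. Tnfaip6, which cumulus cells also make, had no count in the 10 oocytes and was at 8.15, 30.4 and 64.7 CPM in 2-cell libraries, at least 641-fold higher against 3 counts over the pool of 10. With all 14 oocytes its log2 ratio was 5.06, against 9.32. Of its allele-assigned counts 67.2% were paternal. Cyp19a1, aromatase, was at 44.2 to 63.4 CPM in oocytes and at 0 to 21.1 CPM in 2-cell libraries (-2.61, and -3.52 without replicate 8). Cyp11a1 reached 14.8 CPM in an oocyte, Fst 6.66 CPM in a 2-cell library, and Bmpr1b was at 163.8 CPM in the oocyte pool and 74.1 CPM in the 2-cell pool. On the same list Amhr2 went from 0.0154 to 11.8 CPM on 1 oocyte count and Gata4 from 6.36 to 21.4 CPM. The sperm genes Prm1, Tnp2 and Smcp stayed at 0.603 CPM or less, Prm2 and Odf1 at 4.58 CPM or less, and Tnp1 was at 0 in oocytes and at up to 13.2 CPM in 2-cell libraries. Ldhc was higher by 3.53, with overlap. The blood genes Hba-a1 and Hbb-b1 were at 0 everywhere and Ptprc did not pass 0.23 CPM, but Cd74 was at 0 in oocytes and at 0 to 47.1 CPM in 2-cell libraries. Any part of such cells in the ratios was not tested.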

How the data were processed

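Single-cell libraries of polyadenylated RNA from wild-type MII oocytes and 2-cell embryos were analysed from the deposited tables of raw counts per gene symbol, one for all reads and one each for reads assigned to the maternal and the paternal genome. The submitters' processing notes name STAR 2.6.0a, HTSeq 0.10.0, featureCounts 2.0.1, Trim Galore 0.6.6, cutadapt 1.15 and the build mm9, without roles. The members and the 48 gene lists were chosen with earlier results of these data known. The libraries are labelled as single-cell RNA sequencing and no animal is named, so each stage was taken as 1 sample and no test between stages was run.

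From the counts, ERCC rows were set apart, libraries of a stage were summed and scaled to CPM over the other genes, or to counts per ERCC count. Ratios carry exact conditional Poisson 95% intervals, and paternal shares exact Clopper-Pearson intervals over 50 or more allele-assigned counts. Both cover counting error only, since no molecular identifiers are given. A gene was measured when one of the pools held 10 CPM of it, and 2-fold was the call. Named genes were, at 20 CPM or more, without overlap and leaving out predicted models, the 12 most counted among those 8-fold higher and among those 4-fold lower, and the 6 largest and 6 smallest ratios. To these were added, with or without overlap, the 8 most counted genes within 1.25-fold, the 8 that turn between scales, up to 4 members of each list per direction, and the stage markers. No pair of libraries in a stage had identical counts. TMM factors came from edgeR 4.0.16 and size factors from DESeq2 1.42.0 in R 4.3.3. Other steps used Python 3.11.15 with numpy 2.4.6, pandas 2.3.3, scipy 1.17.1 and matplotlib 3.10.9, and were tested on simulated data. Promoters came from the RefSeq table of build GRCm38.p6, matched by symbol, for 6726 of the 8478 measured genes.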

Additional observations from a re-analysis of the deposited data

Results flagged for a closer look

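In 123 groups of values, the highest or lowest library was compared with the gap that separates it from the rest, and 16 groups had such a library. With independent, normally distributed values about 1 in 20 groups would have one. The 123 groups come from the same 18 libraries, so the 16 cannot be set against that rate. Of the 16, 13 concerned 2-cell replicate 8. This library had the most gene counts (10303580), the lowest ERCC share (0.0583%), the most counts per ERCC count (1714) and the lowest median correlation with its own group (0.6951). It also had the highest 2-cell CPM of Rfpl4 (3834), Slbp (3666), Rbbp7 (2248), Ldhb (1327), Oas1d (567.6), H1foo (1786), Zbed3 (35280) and Gdf9 (1272), and the lowest of Ssb (151.5). The others were the median correlation of oocyte replicate 6 with the other oocytes (0.9487), the Prps1 level of 2-cell replicate 3 (2874 CPM) and the Psma7 level of oocyte replicate 8 (1404 CPM).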

How the results depend on the processing

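By CPM, TMM factors gave 2128 lower genes in place of 1084, and without the filter on low genes 10669 were higher and 1877 lower. Per ERCC count, 1016 genes lay above and 1491 below without overlap. The cause was not tested, except that without a filter more genes are counted. Leaving out 1 library at a time gave 3432 to 3827 higher and 1064 to 1259 lower genes by CPM, 2054 to 2286 and 2830 to 3400 per ERCC count, and 1996 to 2875 above and 706 to 885 below without overlap. The ratio of counts per ERCC count, 0.46, then ran from 0.4056 to 0.482. Per ERCC count 27 of the 48 list medians turned sign, and of those at 2-fold or more by CPM the 4 that turned were those of the genome activation regulators (-0.000103), glycolysis (-0.0499), growth factor and signalling components (-0.0258) and X- and Y-linked genes (-0.00804). With all 14 wild-type oocytes, Gdf9 (-2.10) and Sall4 (-0.158) turned to the lower side, Mos went from 0.89 to -6.20, and Zp3, Igf2r, Dppa3, Zfp57 and Sp110 were under 2-fold. The cause was not tested. No paired analysis was possible because the replicate numbers only name libraries and no test between stages was run. Intervals cover counting error, and with 1 to 3 oocyte counts they span several log2 units.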

Other observations

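Summed CPM of 6 Y-linked genes separated the 2-cell libraries. It was 129.5 to 417.9 in replicates 1, 2, 4, 5, 6 and 7, 0.3856 in replicate 3 and 0 in replicate 8. The X-linked Prps1 had a paternal share of 44.4% in replicate 3 (2641 of 5946 allele-assigned counts) and 43.8% in replicate 8 (648 of 1481), and at most 0.184% in the other 6. Xist had 48 counts in replicate 3, 3 in replicate 8 and 31 in replicate 1.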
